A study of Mus musculus with 30 samples.

Results

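The microRNA precursors numbered Mir6896 to Mir7094 form one consecutively numbered block of mouse annotation that is rich in mirtron candidates. Members were taken from the symbols alone, as every row numbered from Mir6896 to Mir7094, with or without a letter or copy suffix, and without Mir6969. This gave 202 of the 2194 named features in each organ's table. The rule itself uses no measured value, but it was set with earlier results of these data known. The 30 small RNA libraries come from whole organs of 6 male mice, all 4 months old: brain, heart, kidney, liver and spleen. The genotype of 3 of the mice is given as deficient in Ftsj1, a ribose methyltransferase of transfer RNA, and that of the other 3 as wild type, with no treatment in either group and no further detail of the allele in the labels. Of the 6 mice, 4 are brothers and the other two are brothers as well, with both genotypes in each litter. In heart, kidney and liver, 1 wild-type library belongs to a second batch.

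A mirtron is a microRNA hairpin released by splicing rather than by cleavage of a long primary transcript by Drosha. In the simplest form the whole of a short intron folds into the hairpin. In a tailed mirtron the hairpin sits at one end of a longer intron, and the remaining tail is trimmed away after splicing before Dicer cuts out the mature arms. Mirtrons are typically low in abundance, and their level can follow the transcription and splicing of the gene that hosts them.

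The hairpins below are shown because the results turn on these precursors, and because their ends show how the block lies in its host genes. They come from RefSeq on GRCm38.p6, whereas the deposited counts were made on GRCm39, so the coordinates here serve the sequences only. Capitals mark the bases at an annotated intron boundary: the first 2 bases where the hairpin starts at the 5′ splice site, and the last 2 where it ends at the 3′ splice site. Mir6944 lies at chr13:55477681-55477776 on the minus strand and fills an intron of Dbn1, which encodes drebrin, an actin-binding protein of dendritic spines. Mir7018 lies at chr4:137538286-137538370 on the plus strand and fills an intron of Hspg2, the gene of the basement membrane proteoglycan perlecan. Mir7068, at chr8:72470016-72470089 on the minus strand, fills an intron of Cherp, and Mir7088, at chr9:108081498-108081583 on the plus strand, fills an intron of Mst1, the gene of macrophage stimulating protein.
Mir6944: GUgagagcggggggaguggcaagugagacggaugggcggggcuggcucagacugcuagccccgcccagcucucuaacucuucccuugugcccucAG
Mir7018: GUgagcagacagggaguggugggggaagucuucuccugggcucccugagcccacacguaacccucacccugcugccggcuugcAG
Mir7068: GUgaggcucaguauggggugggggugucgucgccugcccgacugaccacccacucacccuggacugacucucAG
Mir7088: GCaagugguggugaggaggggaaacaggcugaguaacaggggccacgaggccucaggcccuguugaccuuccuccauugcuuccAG
The first 3 of these introns carry the common GU start, and that of Mir7088 starts with GC.

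The next set ends at the 3′ splice site and leaves a 5′ tail. Mir6988 lies at chr19:6051334-6051392 on the plus strand in an 82-base intron of Syvn1, which encodes a ubiquitin ligase of the endoplasmic reticulum. Mir6989 lies at chr19:6346480-6346544 on the plus strand in a 77-base intron of Map4k2, a kinase gene. Mir6929 lies at chr11:101419187-101419253 on the minus strand in an intron of Ptges3l. Mir6978 lies at chr17:57217172-57217228 on the minus strand in an intron of C3, the gene of complement component C3. Mir6940 lies at chr12:112733322-112733391 on the plus strand in Cep170b, and Mir7083 at chr9:21809941-21810000 on the minus strand in Dock6. Mir7036b, at chr5:34574151-34574213 on the plus strand, lies within an intron of Add1 and touches neither of its ends, so none of its bases is in capitals.
Mir6988: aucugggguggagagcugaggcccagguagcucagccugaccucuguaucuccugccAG
Mir6989: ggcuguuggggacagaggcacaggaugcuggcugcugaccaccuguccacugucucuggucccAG
Mir6929: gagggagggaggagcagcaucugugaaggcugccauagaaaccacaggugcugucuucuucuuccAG
Mir6978: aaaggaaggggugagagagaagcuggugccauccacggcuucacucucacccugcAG
Mir6940: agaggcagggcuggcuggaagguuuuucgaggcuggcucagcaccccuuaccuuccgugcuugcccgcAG
Mir7083: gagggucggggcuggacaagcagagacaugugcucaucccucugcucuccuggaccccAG
Mir7036b: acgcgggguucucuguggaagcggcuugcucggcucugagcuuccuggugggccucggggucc

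The position of these hairpins held across the block. RefSeq had a hairpin for 179 of the 202 members, and 165 of these, 92.2%, ended exactly at the 3′ splice site of an annotated GENCODE intron. Of 780 hairpins of other Mir features, 18 did so, or 2.31%. Among the 165, 11 filled their intron and 154 left a 5′ tail, with a median tail of 490 bases and a range from 7 to 36205 bases. Another 4 started at a 5′ splice site, 9 overlapped an exon, and Mir7036b alone lay inside an intron away from both ends. The 165 members that ended at a 3′ splice site sat in 163 host genes. The 179 hairpins of the block were short, with a median of 66 bases against 83 for the other Mir hairpins. These are properties of the annotation and were not tested.

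The arms of the block differed in composition from those of other Mir features. The 176 arms from the 5′ side of the block had a median of 43.7% G, against 27.3% for the 516 such arms of other Mir features. The 176 arms from the 3′ side had a median of 72.5% pyrimidine, against 54.5% for 520 others. Of the 3′ arms, 77.3% ended in AG, compared with 11% of the others. The mature arms of the precursors that the later sections turn on are shown next, with the seed, bases 2 to 8, in capitals.
miR-6988-5p: gGGGUGGAgagcugaggccca
miR-6988-3p: uGACCUCUguaucuccugccag
miR-6944-3p: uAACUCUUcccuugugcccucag
miR-7036b-5p: aCGCGGGGuucucuguggaagc
miR-7015-5p: uCUGUGCAguaggcuguggguuc
miR-7015-3p: uCUCACUGuccucugcacuag
miR-6986-3p: gUUUUCACcuuccucccag
miR-6990-3p: aGCCCUGCcucuuccuggcag
miR-7019-3p: uCACCUUGgccgccucucugcag
miR-7068-3p: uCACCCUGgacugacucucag
miR-7018-3p: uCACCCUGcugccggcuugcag
The 3′ arms of miR-7068 and miR-7018 share the seed CACCCUG with that of miR-7023. Shared seeds were few: the 352 mature sequences of 184 members held 323 different seeds, and 25 of these occurred in 2 or more members. The seed of miR-7015-3p, CUCACUG, also occurred in miR-6992-3p. Among the 184 members with a mature sequence, only Mir7094-1 and Mir7094-2 had an identical one, so their reads may be split or shared. Members without a mature sequence could not be compared. Sharing of reads between the copies Mir6967-1 and Mir6967-2 was not tested.

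Detection came first, since most members were close to the limit of these libraries. A member counted as detected where its deposited mean was above 0, that is, with at least 1 read in any of an organ's 6 libraries. Detection reached 171 of 202 members in brain (84.7%), 165 in spleen (81.7%), 161 in heart (79.7%), 152 in kidney (75.2%) and 110 in liver (54.5%). Of the 528 precursors numbered up to 1000, 78.4% were detected in spleen, 75.0% in brain, 74.6% in heart, 71.6% in kidney and 69.5% in liver. At this cutoff of 1 read, the block was seen more often than the older precursors in every organ but liver, where it was seen less often. At a mean of at least 1 it was seen more often in brain alone, at 72.8% against 68.2%. It was then lower in heart (46.0% against 64.6%), kidney (59.4% against 63.3%), spleen (59.4% against 69.9%) and liver (39.1% against 62.7%). At a mean of at least 10 it was lower in every organ, with 27.2% against 59.5% in brain. These shares are a description. Precursors numbered above 1000 and below Mir6896 were detected at 59.6% in brain and 54.6% in liver.

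**Figure D1:**
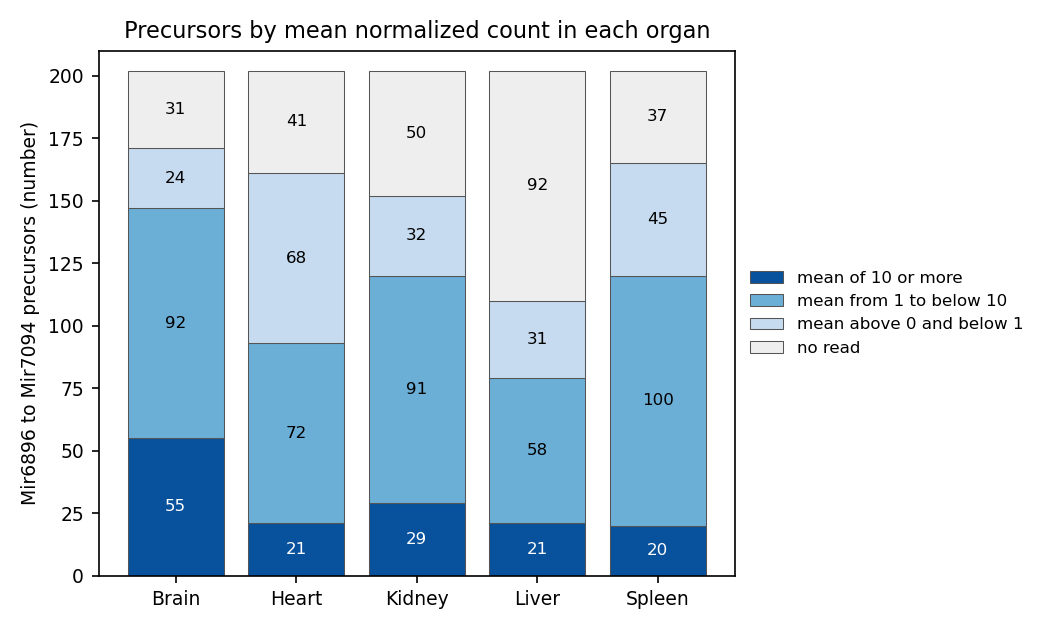
Number of the 202 precursors Mir6896 to Mir7094 (vertical axis) in each organ (horizontal axis), stacked by deposited mean normalized count over 6 libraries. Brain had 55 precursors with a mean of 10 or more and 31 without a read, and liver had 21 and 92.

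Few reads stood behind these counts. Depth per library is known only as a size factor, which is relative to the other libraries of the same organ. Size factors, such as 0.5 for a liver library and 2.37 for a heart library, therefore do not rank depth across organs. The summed mean normalized counts were 21787131 in kidney, 18941389 in liver, 16119031 in brain, 10737328 in spleen and 8511372 in heart. Whole reads per library could be recovered from the deposited means for 159 of 161 detected members in heart, 150 of 152 in kidney, 108 of 110 in liver, 161 of 165 in spleen and 158 of 171 in brain. The median number of reads over an organ's 6 libraries was highest in brain, at 32, and stood at 19 in liver, 16 in kidney, 14 in spleen and 12 in heart, among members whose reads were recovered. A single read was the whole evidence for 13 members in heart, 12 in liver, 10 in spleen, 8 in kidney and 6 in brain. A mean of at least 10 normalized counts, which are counts divided by a size factor for the depth of each library, was reached by 55 members in brain, 29 in kidney, 21 in heart, 21 in liver and 20 in spleen. An organ with 0 reads in all libraries can still hold a level of up to 3 reads, so a member that was not detected is not shown to be absent.

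Across organs, 76 members were detected in all 5 and 46 in 4. Another 48 were seen in 3 organs, 20 in 2 and 11 in 1, and Mir7050 had no read in any organ. Only Mir6911, Mir6952, Mir6988, Mir6989, Mir7015, Mir7036b, Mir7043 and Mir7068 had a mean of at least 10 in all 5 organs. Of the 11 whole-intron members, 9 were detected in kidney, 9 in spleen, 7 in brain, 7 in heart and 4 in liver.

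The organ labels were read against their known microRNAs. The lists for brain (such as Mir9 and Mir128 precursors), heart (Mir1a and Mir133a), kidney (Mir10 and Mir30a), liver (Mir122) and spleen (Mir150 and Mir223) each took their largest share of counts in the labelled organ, at 20%, 11.6%, 23.7%, 26.2% and 1.47%. Pancreas microRNAs, which a neighbouring organ could bring in, were highest in spleen, at 0.322% of its total. Their part in the spleen values below was not tested. Ftsj1 is not among the counted features, and the tables thus offer no check of the genotype labels. In bulk tissue, a lower level from fewer cells of a type and from less RNA per cell cannot be told apart.

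Together the members took a small share of each organ's counts, and the share was largest in brain. Their deposited means summed to 191.7 ppm (parts per 1000000 of an organ's summed mean normalized counts) in brain, 102.6 in spleen, 96.2 in heart, 66.5 in liver and 60.5 in kidney. In liver the sum rested largely on Mir7036b, which held 38.9% of it, and stood at 40.6 ppm without this member. The 5 most abundant members held 59.0% of the sum in liver, 40.3% in spleen, 35.4% in brain, 33.1% in kidney and 32.5% in heart. The tables of the organs were normalized separately and each read counts once whatever the hairpin's length, so levels across organs and members are a description, not divided by length.

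Mir6988, the Syvn1 hairpin, was among the 3 highest members in every organ. It stood at 18.5 ppm of the organ total in brain, 10.1 in spleen, 7.75 in kidney, 6.60 in liver and 5.95 in heart. Here and below, the libraries of an organ are given as 2 sets of 3, one set per genotype, in an order that is explained with the genotype comparison. The recovered heart reads of Mir6988 gave 34.7, 36.1 and 47.9 normalized counts in 3 libraries and 74.9, 54.3 and 56.0 in the others. Mir6989, the Map4k2 hairpin, came after Mir6988 and Mir6944 in brain, at 12.6 ppm, and stood at 0.767 ppm in liver. The deposited means of Mir6988 and Mir6989 in brain were 298 and 203 normalized counts in the authors' deposited table.

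Mir7036b, the hairpin that is not at a splice site, was the highest member in liver and heart. Its level was 25.9 ppm in liver, 9.78 in brain, 9.10 in heart, 9.07 in spleen and 5.03 in kidney. Its order among the members thus ran from the first place in liver and heart to the second in kidney and spleen and the fourth in brain. Its reads per library could not be recovered in any organ, so no spread over libraries can be given. Mir7068, the Cherp intron, was second in heart at 8.93 ppm, and stood at 4.05 in brain, 1.85 in kidney, 1.60 in spleen and 0.789 in liver.

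Several members took most of their level from 1 organ. Those named here had the largest shares among members with at least 20 recovered reads, were among the most abundant, or, for Mir6978, had a small p in the genotype comparison, so the shares describe the choice and carry no test. Mir6944, the drebrin intron, had 82.4% of its summed ppm in brain, at 18.3 ppm against 1.65 in heart, 1.39 in kidney, 0.678 in spleen and 0.208 in liver. In kidney its normalized counts were 6.02, 33.8 and 18.8 in 3 libraries and 22.4, 96.1 and 5.09 in the others, a spread wider than its mean among libraries. Mir6982 and Mir7056 had reads only in brain. Mir7056 lies at the end of an intron of Ptpn5, which encodes a phosphatase enriched in the striatum, and had 0, 6 and 0 reads in 3 brain libraries and 21, 1 and 0 in the others. Mir6982 had 33, 17 and 0 reads and 25, 8 and 6 reads, and was thus read in 5 of the 6 brain libraries.

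In heart, Mir6929 from Ptges3l had 90.2% of its level, at 3.82 ppm. It was read in each of the 6 heart libraries, with 26.6, 23.1 and 18.2 normalized counts in 3 and 18.4, 43.5 and 65.4 in the others. Mir7018, the perlecan intron, had 83.0% of its level in heart, with 32, 0 and 0 reads and 25, 5 and 4 reads. Mir7018 and Mir7068 are both whole introns with one 3′ seed, and both were highest in heart. The whole introns Mir6944 and Mir7088 were highest in brain and in liver. A link of hairpin form or seed to an organ was not tested. Of the 171 members with at least 20 recovered reads over the 5 organs, 26 were highest in heart, 77 in brain, 46 in spleen, 13 in liver and 9 in kidney.

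In kidney the largest shares belonged to Mir6917 and Mir7011. Mir6917 lies in Erbb3, the gene of a receptor tyrosine kinase for neuregulins, and had 77.9% of its level in kidney, with 8, 0 and 5 reads and 23, 14 and 9 reads. Mir7011 lies in Sema4a, the gene of a membrane semaphorin, and had 73.1% there, with 6, 0 and 0 reads and 0, 56 and 11 reads. Most of the kidney level of Mir7011 therefore came from 1 library.

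In liver the largest shares belonged to Mir7088 and Mir6993. Mir7088, in the intron of Mst1, which the liver secretes, had 96.9% of its level in liver. Its liver reads were 0, 0 and 25 in 3 libraries and 8, 0 and 11 in the others, and 3 libraries of the 6 had none. Mir6978, in C3 and named for its small p in spleen, had 77.7% of its level in liver, with 26, 0 and 0 reads and 34, 129 and 18 reads. Mir6993, in the fatty acid desaturase gene Fads1, had 78.6% in liver from only 2 libraries, with 2 and 18 reads.

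In spleen the largest shares belonged to Mir7086 and Mir6973a, which had reads in no other organ. Mir7086 lies in Il10ra, which encodes a chain of the interleukin-10 receptor, and had 0, 7 and 8 reads in 3 spleen libraries and 2, 4 and 0 in the others. Mir6973a lies in Ltb, the lymphotoxin beta gene, and had 20, 1 and 0 reads and 9, 7 and 0 reads. Each had no read in 2 of the 6 spleen libraries. Whether host gene RNA followed the same order was not tested, since these tables hold no messenger RNA.

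**Figure D2:**
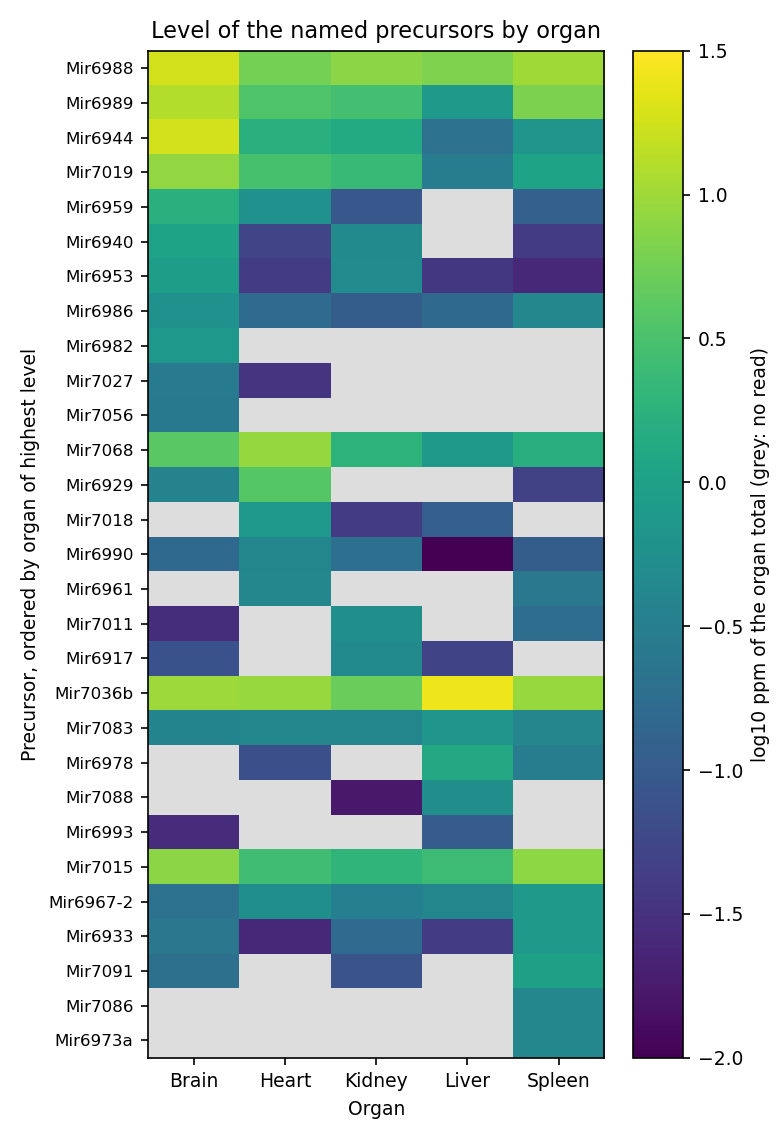
Level of the named precursors (rows, ordered by the organ of their highest level) in 5 organs (columns), as log10 ppm of the organ's summed mean normalized counts, with grey for no read. Mir6988 and Mir6944 were highest in brain, at 18.5 and 18.3 ppm, and Mir7036b in liver, at 25.9, while Mir7086 and Mir6973a had reads in spleen alone.

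Older, well described mirtrons give a scale for these levels. Mir1981 stood at 136.2 ppm in brain, 107.5 in kidney and 54.5 in spleen. Mir877 stood at 18.9 ppm in brain and 5.26 in kidney, and Mir702 at 15.95 in brain. Mir1224 stood at 23.5 in brain and at 0.226 or less in the other organs. The highest members of the block thus lay near Mir877 and Mir1224 in brain and below Mir1981 in every organ.

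The genotype comparison asks whether loss of Ftsj1 shifts these precursors. The authors' deposited tables give a log2 fold change per organ without naming the genotype in the numerator, so signs are given as deposited. Setting signs of different organs side by side takes for granted that the numerator did not change. Below, the positive side of an organ means the 3 libraries in which a higher count makes its fold change larger, and the negative side means the remaining 3. Neither side can be assigned to a genotype, and single libraries cannot be assigned to a mouse or a batch, so no within-batch value can be given and the batch and the genotype cannot be told apart in heart, kidney and liver. Library numbers within a side carry no pairing.

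No member passed a DESeq2 adjusted p of 0.05 in any organ in the authors' deposited tables. Over all features tested, 1.13% passed in heart, 0.229% in liver, and 0.0% in each of brain, spleen and kidney. In the authors' deposited tables the smallest DESeq2 adjusted p of a member was 0.274 in liver, 0.331 in kidney, 0.670 in heart, 0.988 in spleen and 0.989 in brain. In heart only 10 of the 161 detected members carry an adjusted p. An adjustment over all heart features with a p also called none.

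At an unadjusted DESeq2 p below 0.05, the counts in the authors' deposited tables were compared with the background over all features. They were close to it or below it in every organ but kidney, where they were above. They were 3 of 171 members in brain beside 2.23% of all features, 7 of 161 in heart beside 5.33%, 10 of 152 in kidney beside 4.5%, 3 of 110 in liver beside 3.9%, and 7 of 165 in spleen beside 3.48%. As shares of the members these are 1.75%, 4.35%, 6.58%, 2.73% and 4.24%. By sign, kidney had 8 negative members beside 3.33% of all features and 2 positive beside 1.17%. Spleen had 5 positive members beside 2.65% and 2 negative beside 0.828%. Heart had 3 positive beside 3.34% and 4 negative beside 1.99%, liver 1 positive beside 1.72% and 2 negative beside 2.18%, and brain 1 positive beside 1.17% and 2 negative beside 1.07%. All 30 of these members passed that limit in 1 organ each and none in 2.

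**Figure D3:**
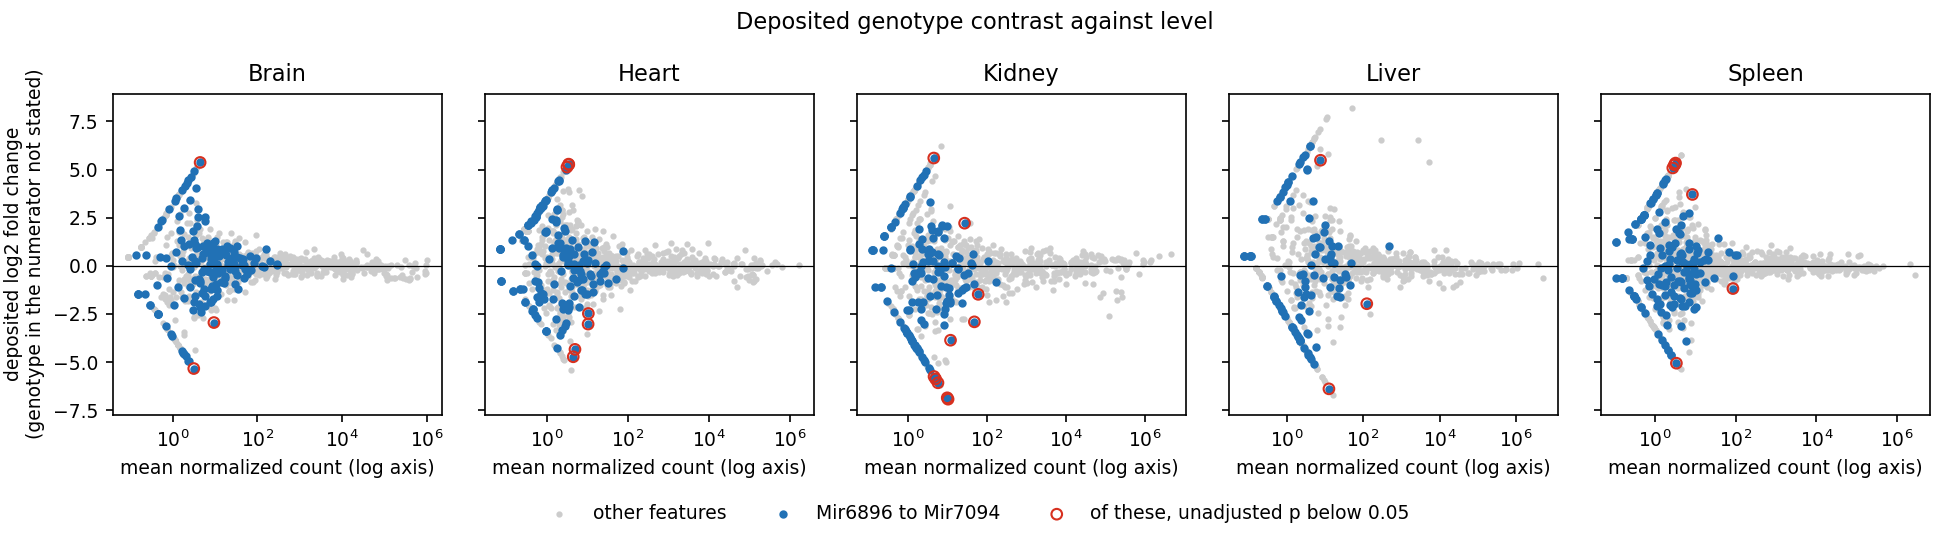
Deposited log2 fold change (vertical axis, numerator not stated) against mean normalized count (horizontal log axis) per organ, with members of the block in blue, other features in grey and members at an unadjusted p below 0.05 ringed in red. The members lie at the low end of the level axis, where fold changes spread widest: they reach from -6.93 to 5.60 in kidney.

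The fold changes of the block were imprecise. The median deposited standard error of log2 was smallest in brain, at 1.61, and stood at 2.59 in spleen, 2.81 in heart, 3.30 in kidney and 3.89 in liver in the authors' deposited tables. It was above 2 for 72 members in brain, 104 in spleen, 116 in heart, 115 in kidney and 92 in liver. The median log2 fold change of the members in the authors' deposited tables was -0.51 in liver, -0.45 in kidney, 0.02 in spleen, 0.05 in brain and 0.23 in heart. Over all features it was 0.07, 0.04, 0.00, -0.01 and 0.16 in that order. In kidney 63 members were positive and 89 negative, and in liver 51 and 59, whereas brain had 89 and 82, heart 90 and 71, and spleen 83 and 82. The precision rests on 3 libraries per genotype and on few reads, so a change of several fold in a single member was mostly not detectable at this depth.

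The smallest standard error in each organ belonged to one of its 3 most abundant members. Not all abundant members were precise: Mir7036b, the highest in heart, had a standard error of 1.77. For Mir6988 the authors' deposited tables give a log2 value of 0.54 (standard error 0.41) in spleen, 0.10 (0.31) in brain, -0.66 (0.49) in heart, -0.86 (0.52) in kidney and -1.97 (0.77) in liver. Its liver value had an unadjusted p of 0.0103 and an adjusted p of 0.991 by DESeq2 in the authors' deposited table. In heart, where its reads were recovered, the 3 libraries of the negative side all lay above those of the positive side. Mir6944 was at log2 0.02 (standard error 0.35) in brain in the authors' deposited table, with a 95% interval from -0.67 to 0.72.

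Among the members chosen for the smallest p in each organ, Mir7015 in spleen was the best measured. Its mature arms are printed above. It had 61.8, 48.5 and 46.2 normalized counts on the positive side, from 94, 36 and 29 reads. On the negative side it had 105, 124 and 128, from 157, 137 and 113 reads. The sides did not overlap and their means differed 2.29-fold, or 2.20-fold without the highest library. The deposited log2 fold change was -1.18 (standard error 0.41), with an unadjusted p of 0.00392 and an adjusted p of 0.988 by DESeq2 in the authors' deposited table. In the other organs Mir7015 was at 0.00 (0.46) in brain, -0.31 (0.72) in heart, 0.03 (0.68) in kidney and 0.14 (0.67) in liver on the log2 scale, in the authors' deposited tables. Its kidney libraries overlapped, at 32.4, 60.5 and 36.2 normalized counts on the positive side and 37.6, 37.3 and 52.2 on the negative side.

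In brain, Mir6986 from an intron of Rce1, the gene of a protease that trims prenylated proteins, was lower on the positive side. It had 3.64, 0 and 2.74 normalized counts on the positive side and 14.95, 18.7 and 16.2 on the negative side. The sides did not overlap and their means differed 7.82-fold. With the highest library left out the difference was 7.33-fold. The authors' deposited table gives log2 -2.95 (standard error 1.27) and an unadjusted DESeq2 p of 0.0199. Mir7027 had all of its brain reads on the positive side, with 5, 29 and 0. Against a floor of 3 reads over a side that is at least 7.70-fold higher, but at least 1.65-fold without its highest library. Mir7091, the intron of Dnase1l1, had all of its brain reads on the negative side, with 0, 8 and 6, which is at least 6.87-fold higher. Without its highest library it was at least 4.12-fold higher.

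In heart, Mir6990 from an intron of Esrra, an orphan nuclear receptor gene of energy metabolism, had reads on the positive side alone. They numbered 20, 4 and 4, or 8.46, 5.78 and 6.61 normalized counts, against 0 in each library of the negative side, which is at least 9.33-fold higher. Without the highest library it was at least 7.53-fold higher, so no single library carried it. Its log2 fold change was 5.28 (standard error 2.13) with an unadjusted DESeq2 p of 0.0133 and no adjusted p in the authors' deposited table. Mir6961, in Bin2, had 1, 4 and 9 reads against 0, at least 4.67-fold higher, and at least 2.00-fold without the highest library. Mir6959, in Sbf1, had positive side reads of 2, 0 and 0 and negative side reads of 23, 14 and 0, a ratio of 18.5 with a 95% counting interval from 4.77 to 158. The sides of Mir6959 overlapped at 0.

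In kidney, Mir6940 from Cep170b had the smallest p of any member. All of its kidney reads lay on the negative side, at 8, 39 and 12, or 7.17, 38.3 and 15.3 normalized counts. That is at least 22.2-fold higher on the negative side, and at least 11.5-fold without the highest library, with a log2 fold change of -6.86 (standard error 1.91), an unadjusted p of 0.000324 and an adjusted p of 0.331 by DESeq2 in the authors' deposited table. Mir6953 also had reads on the negative side alone, 12, 54 and 0, at least 24.8-fold higher and at least 6.93-fold when its highest library is left out. Mir7019, in the gene of the mitochondrial kinase Pink1, had positive side reads of 14, 2 and 16 and negative side reads of 10, 222 and 26. Its sides overlapped, and the 7.36-fold difference of their means was 1.79-fold without the library of 222 reads.

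The kidney library with 222 reads of Mir7019 was the highest for many members. In it the normalized counts of the members with recovered reads summed to 2034, against 755 to 948 in the other 5. Outside the block, reads were recovered only up to a mean of 30, apart from the older mirtrons. At 20 or more recovered reads, this library was highest for 30 of 70 members (42.9%) and 51 of 160 others (31.9%). Of the 10 kidney members with an unadjusted p below 0.05, 7 had their highest count there, among them Mir6940, Mir6953 and Mir7019. The negative over the positive side was 1.52 for the summed level and 1.05 without this library. Among features with a mean up to 30, the sums in it and the range of the other 5 were 1436 against 456 to 661 for the block, 480 against 142 to 227 for numbers above Mir7094, 979 against 594 to 710 for numbers above 1000 and below Mir6896, and 823 against 581 to 900 for numbers up to 1000. The library was thus the highest for precursors numbered above 1000 and within the range of the others for those up to 1000. Which mouse, genotype or batch it belongs to cannot be told, and its part in the kidney values was not tested beyond these sums.

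**Figure D4:**
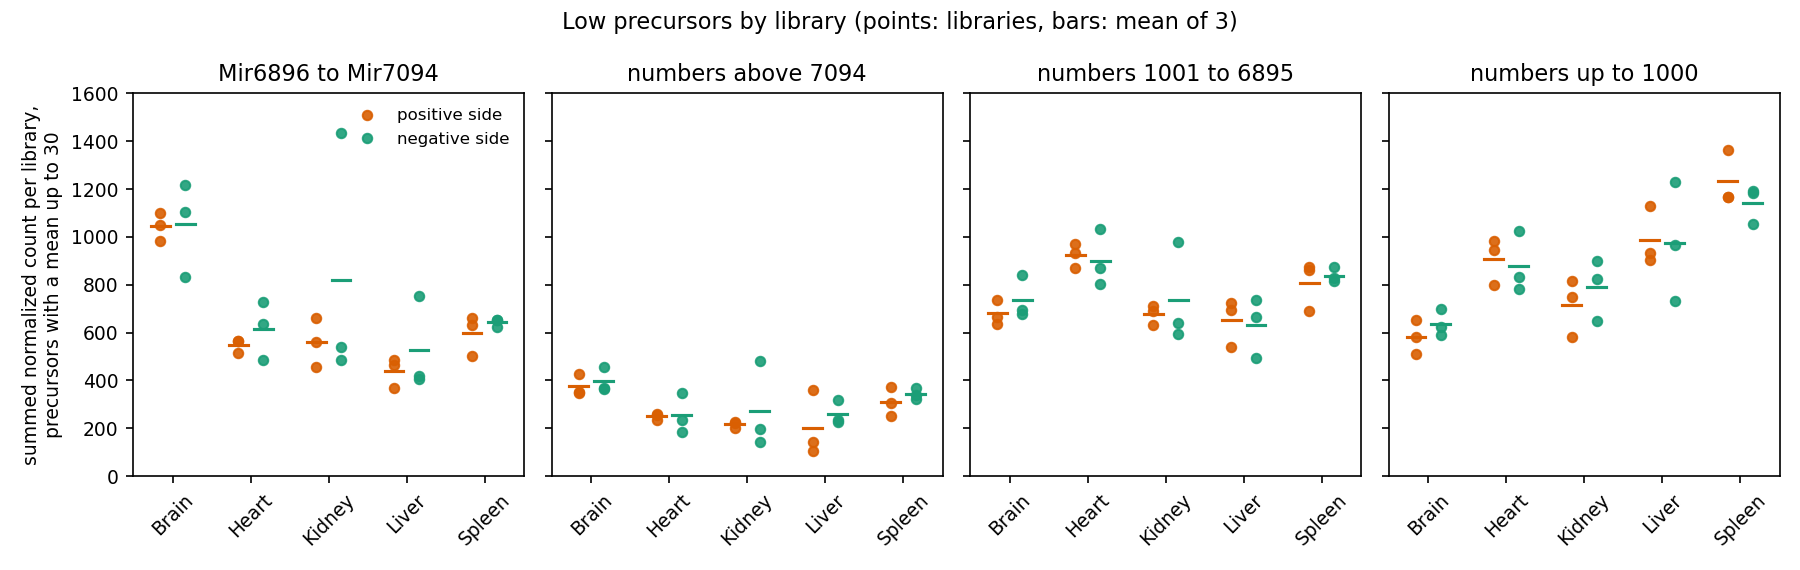
Summed normalized count per library (vertical axis) of precursors with a mean up to 30, by organ (horizontal axis) and number class (panels), with the positive side in orange, the negative side in green, points for libraries and bars for the mean of 3. One kidney library stands at 1436 for the block, above the 456 to 661 of the other 5 kidney libraries, and is within their range for numbers up to 1000.

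In liver, Mir7083 from Dock6 had all of its liver reads on the negative side, at 7, 75 and 36, or 3.25, 48.8 and 24.8 normalized counts. It was at least 14.0-fold higher on the negative side and at least 7.27-fold without the highest library, with a log2 fold change of -6.39 (standard error 1.98), an unadjusted p of 0.00126 and an adjusted p of 0.274 by DESeq2 in the authors' deposited table. Mir6967-2 had positive side reads of 0, 2 and 21 and negative side reads of 2, 0 and 0, a ratio of 32.3 with a 95% counting interval from 7.99 to 283. Of its 23 positive side reads 21 came from 1 library, and without that library 2 reads on each side remain, for which no fold is given. Depth separated the sides in liver. The size factors were 0.5 to 0.729 on the positive and 1.45 to 2.15 on the negative side, and 31 to 38 members against 48 to 56 had a read per library. In liver 1 library of the negative side also stood at 1018 for the summed level, against 498 to 624 in the other 5. The negative over the positive side was 1.24 with it and 0.975 without it. The part of depth and of this library in the liver values was not tested.

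In spleen, Mir6933 from an intron of Pgs1, a gene of cardiolipin synthesis, had positive side reads of 6, 24 and 7 and negative side reads of 0, 4 and 0. The sides did not overlap, at 3.94, 32.3 and 11.1 against 0, 3.63 and 0 normalized counts, and differed 13.1-fold, or 6.24-fold without the highest library. Mir6978, the C3 hairpin, had 20, 0 and 4 reads against 0, at least 9.61-fold higher on the positive side, and at least 3.38-fold without the highest library.

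**Figure D5:**
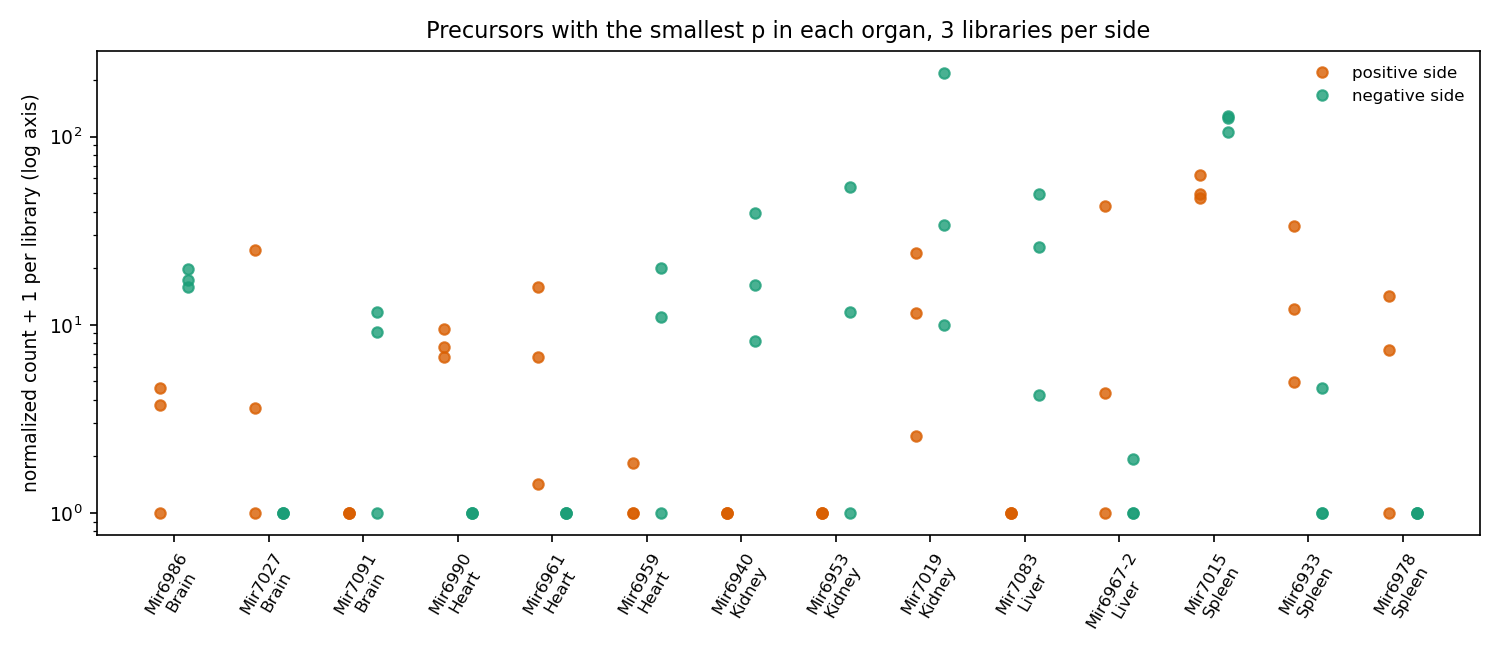
Normalized count plus 1 per library (vertical log axis) for the precursors with the smallest p in each organ (horizontal axis), with 3 libraries of the positive side in orange and 3 of the negative side in green. Mir7015 in spleen is the one with all libraries well above 0 and the sides apart, from 46.2 to 61.8 against 105 to 128, and 8 of the 14 shown had 0 reads in every library of one side and at least 2 libraries with reads on the other.

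The share of members whose sides were apart was close to that of all features with recovered reads, or below it, in every organ. These features include the members. Outside the block, reads were recovered only up to a mean of 30, apart from the older mirtrons, so most abundant precursors are not among them. Among members with at least 20 recovered reads, the libraries of the 2 sides did not overlap for 10 of 101 in brain beside 9.2% of all such features, 5 of 59 in heart beside 9.85%, 5 of 70 in kidney beside 10%, 6 of 53 in liver beside 12%, and 3 of 68 in spleen beside 7.54%. All 6 in liver were higher on the deeper negative side. A single library held over 50% of the normalized counts for 19 members in brain beside 17.6% of features, 13 in heart beside 24.5%, 37 in kidney beside 42.6%, 30 in liver beside 53.7% and 25 in spleen beside 22.3%. As shares of the members these are 18.8%, 22.0%, 52.9%, 56.6% and 36.8%.

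The contrast was then compared between organs, as the difference of 2 deposited log2 fold changes over their combined standard error in each of the 10 pairs. The same 6 mice gave all organs, so the organs are not independent samples. No member differed between organs after Benjamini-Hochberg adjustment, with the smallest adjusted p of a pair from 0.811 to 1.00. In a simulation with the standard errors of heart and spleen, a log2 difference of 3.0 was planted in 200 of 959 features. It was recovered for 75 of the 200, and for 0 of the 29 members among them. The lack of a called member therefore does not show that the contrast was alike between organs. The share of all features that differed was 0.0% in 9 of the pairs and 0.134% between kidney and liver. At an unadjusted p below 0.05 there were 38 of 1200 member tests (3.17%), beside 229 of 8380 over all features (2.73%). For Mir6988 the liver and spleen values were 2.51 apart on the log2 scale (standard error 0.87), with an adjusted p of 0.914 for the difference.

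Signs across organs were mixed. Of the 76 members with a statistic in all 5 organs, Mir6925, Mir6996, Mir7006 and Mir7036b were positive in each, and 8 were negative in each: Mir6921, Mir6964, Mir7010, Mir7026, Mir7032, Mir7043, Mir7046 and Mir7048. These were picked by their signs and share mice, so the counts carry no test. Mir7036b was at log2 1.04 (standard error 0.99) in liver, 0.88 (0.47) in brain, 0.77 (1.77) in heart, 0.57 (0.45) in spleen and 0.25 (0.82) in kidney in the authors' deposited tables. Mir7043, in an intron of Rassf4, was at -0.76 (0.78), -0.63 (0.92), -0.81 (0.92), -0.51 (0.43) and -0.46 (0.90) in the same order in the authors' deposited tables. In liver Mir7043 had 20.6, 18.3 and 18.0 normalized counts on the positive side and 42.7, 24.7 and 28.9 on the negative side, which did not overlap, while in brain, at 22.9, 3.31 and 13.7 against 19.4, 21.4 and 21.6, they did. Neither precursor had an unadjusted DESeq2 p below 0.05 in any organ in the authors' deposited tables. The older mirtron Mir877 was at log2 -1.86 (standard error 0.77) in kidney, with an unadjusted p of 0.0155 and an adjusted p of 0.735 by DESeq2 in the authors' deposited table.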

How the data were processed

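Small RNA libraries were made with a NEXTflex kit from phenol-extracted RNA of pulverised organs, per the labels' protocols. The submitters' processing notes name featureCounts of Subread 2.0.3 for counting, the GRCm39 build and DESeq2 for the comparison. Not given in the sources used here: the aligner, annotation, strand setting, rule for reads matching several genes and DESeq2 model. The deposited mean is a signal, counts divided by size factors and averaged over an organ's libraries, per the file headers. The deposited fold change and standard error are on the log2 scale, the deposited Wald statistic is a score, and each comes with a deposited p-value and adjusted p-value, per the file headers. Each table has 2195 rows, and 1 row without a name, at most 1.82e-05% of the total, was left out. Columns of per-sample values left unused numbered 0.

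The planned test was for counts of each library, whereas only the authors' comparison is in the tables, so its DESeq2 p-values were used, at a threshold of 0.05. Means under 1 gave 6 size factors per organ (tolerance 1e-11). The mean of each member was split into whole reads per library where 1 solution existed (relative tolerance 1e-14). Features outside the block were split only up to a mean of 30, apart from the older mirtrons. Which 3 libraries form a side was taken from the deposited fold changes. A fold against a side at 0 uses a floor of 3 reads over the side, and a side with 1 to 3 reads gets an exact 95% interval. Floors and intervals cover counting error only. Libraries of a group come from separate mice. Python 3.11.15, numpy 2.4.6, pandas 2.3.3 and scipy 1.17.1 were used, and the steps were tested on simulated data.

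Members and lists were chosen with earlier results of these data known. Named members are, per organ, the 3 highest means, the 3 smallest p and the 2 largest shares of a member's level among those with at least 20 reads, and the mirtrons Mir877, Mir1224, Mir702 and Mir1981. Mir7043, the members of one sign in 5 organs and those with a mean of at least 10 in 5 organs were chosen after their values were seen. Alternatives were other minimum levels, totals and adjustments, and leaving out the highest library. RefSeq sequences on GRCm38.p6 were matched by symbol and placed on GENCODE introns of that assembly, for 179 members with a hairpin and 184 with a mature sequence.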

Additional observations from a re-analysis of the deposited data

How the results depend on the processing

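No member passed an adjusted p of 0.05 under any of the 4 other adjustments. With a mean of at least 10 required, detection was 55 members in brain, 29 in kidney, 21 in heart, 21 in liver and 20 in spleen. With a mean of at least 1 it was 93 in heart, and with reads in at least 2 libraries 67 in liver. Members at an unadjusted p below 0.05 with a mean of at least 10 numbered 6 of 29 in kidney beside 7.93% of all features at that level, 2 of 21 in heart beside 10.8%, 2 of 21 in liver beside 5.14%, 1 of 20 in spleen beside 4.89%, and 0 of 55 in brain beside 2.70%. The liver sum without its most abundant member was 40.6 ppm. Without the highest library, folds of the named members ranged from 1.65 to 14.4, and 9 of 13 moved by over 1.5 times. Some of these folds, the 1.65 of Mir7027 in brain among them, are lower bounds against the floor of 3 reads. Mir6967-2 in liver keeps 2 reads on each side, so no fold could be given. That setting for the negative over the positive side, chosen after seeing the data, gave 0.913 to 1.10, below 1 in brain and liver where all libraries gave 1.01 and 1.24. No paired analysis was possible because the mouse numbers are not shared between the genotypes and no counts per library carry a mouse or litter. For the same reason the litter block and the fits without each replicate were not run. Even among members with at least 20 reads, 1 library held over 50% of the counts for 18.8% of them in brain to 56.6% in liver.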
